A study of Rattus norvegicus with 12 samples.

Results

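The nuclear-encoded subunits of the mitochondrial respiratory chain and ATP synthase were followed in brain RNA of 3 groups, which the labels call Sham (the controls), AD (an Alzheimer's disease model) and AD-HFD (that model fed a high-fat diet). Members were the rows of the gene count table whose symbol begins with Nduf and a subunit letter, Uqcr, Cox4 to Cox8 or Atp5, or is Cyc1 or Sdha to Sdhd, with a total count of at least 200 over the 12 libraries. This took 84 of the 31177 rows of the table, with 81 symbols: 37 rows of complex I, 4 of complex II, 10 of complex III, 16 of complex IV and 17 of complex V, the ATP synthase. Cox7a1 and Cox6b2 lay just inside the limit with 354 and 295 counts, and a second Ndufv3 row, Cox8b and Cox7b2 lay just outside it with 176, 153 and 51 counts. Cox8c and Cox6c-ps1 had 0 counts. The rule was based on symbols and counts and took in related forms of subunits, such as Cox4i2, Cox6a2 and Ndufa4l2. Rows were assigned to complexes by symbol, so Ndufa4 and Ndufa4l2 are counted with complex I throughout. All 84 rows passed the filter on low counts.

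Each group held 4 libraries, each written with its number after the group name, so that AD-3 is the AD library numbered 3. The stated question was how the transcriptome changes with the AD model and with added metabolic stress. Strain, age, brain region, the way the AD model was made, the composition and length of the diet and the meaning of the sham procedure are unstated in the labels, and a group with the diet but not the model was not analysed here. The labels speak of mice, whereas the organism is given as Rattus norvegicus and the genes have rat Ensembl identifiers, and the samples were treated as rat. Whether the libraries of a group come from different animals is not stated, and p-values therefore reflect only how far these libraries differ, which may be technical.

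The respiratory chain passes electrons from NADH (complex I) and succinate (complex II) through ubiquinone, complex III and cytochrome c to complex IV, which reduces oxygen, and the proton gradient built on the way drives the ATP synthase. Most subunits are encoded in the nucleus and imported, and a few core subunits of each complex other than complex II are encoded by mitochondrial DNA. Neurons depend heavily on this pathway for the energy of signalling, and fast-spiking interneurons are known for a high content of mitochondria. The transcription factors NRF1 and GABP are known to bind promoters of many of the nuclear genes.

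Total counts ran from 26668974 to 35351792 per library, and levels are given as CPM, counts scaled to a common library size. All 15 general neuron markers were detected in every group, as were all 12 astrocyte and all 12 oligodendrocyte markers. The summed CPM of the neuron markers was 11212 to 14588 in Sham, against 8979 to 10861 in AD and 2485 to 9960 in AD-HFD. AD-HFD-3, at 9960, lay within the AD range, and the other AD-HFD libraries lay at 3815, 4971 and 2485 in order of their numbers. In AD, thalamus markers summed to 140.4 CPM in the library numbered 3 and to 2151, 683 and 1538 CPM in the rest, with Sham at 87.1 to 219 and AD-HFD at 119.9 to 138. Cortical excitatory neuron markers summed to 2526 CPM in AD-3 and to 564, 276 and 412 CPM in the rest of AD, with Sham at 3845 to 5299 and AD-HFD at 787 to 3375. Choroid plexus markers were high in Sham-2, Sham-3, AD-HFD-1 and AD-HFD-2 (578 to 10868 CPM) and at 36.4 CPM or less in the other 8 libraries. Mitochondrially encoded genes took 10.9% ± 0.388 of all Sham counts, 13.1% ± 0.793 of the AD counts and 10.05% ± 0.850 of the AD-HFD counts (SD, n = 4).

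The mean summed level of the respiratory chain transcripts was lower in AD-HFD than in Sham in all 5 complexes, and AD as a group lay near Sham. The 84 rows together held 11558, 10290, 12817 and 12013 CPM in the Sham libraries. They held 11892, 12421, 9390 and 11395 CPM in the AD libraries and 9532, 9137, 9420 and 9146 CPM in the AD-HFD libraries. All 4 AD-HFD libraries lay below all 4 Sham libraries, and AD-3 lay among the AD-HFD libraries while the other 3 AD libraries lay within the Sham range. The group means were 11670 ± 1057 in Sham, against 11275 ± 1324 in AD and 9309 ± 199 in AD-HFD (SD, n = 4), and the AD-HFD libraries were the closest to each other. In bulk tissue fewer cells of a type and less RNA per cell cannot be told apart. The 3 comparisons below share libraries in pairs, and their values are given side by side without a test between them.

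**Figure D1:**
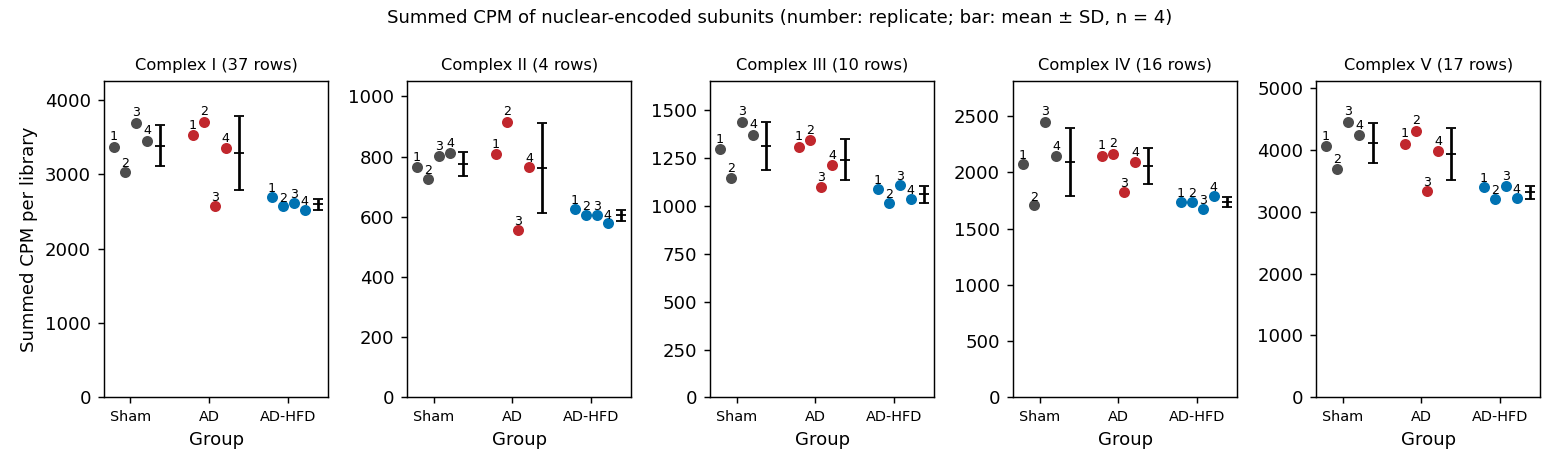
Summed CPM of the subunits of each complex (vertical axis) in the 4 libraries of each group (horizontal axis), with the replicate number at each point and bars for the mean ± SD (n = 4). The AD-HFD points lie close together and low in each panel, and the point of AD-3 lies below those of the other AD libraries in each panel.

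By complex, complex I rows summed to 3388 ± 275 CPM in Sham, against 3290 ± 496 in AD and 2598 ± 72.5 in AD-HFD. The sums of complex II were 776 ± 39.3, 761 ± 150 and 605 ± 19.5 CPM in the same order. Complex III stood at 1312 ± 125, 1242 ± 109 and 1060 ± 43.3 CPM. For complexes I, II, III and V all 4 AD-HFD libraries lay below all 4 Sham libraries. Complex IV stood at 2091 ± 304, 2057 ± 160 and 1737 ± 46.8 CPM, and Sham-2 at 1705 CPM lay within the AD-HFD range of 1677 to 1792. The ATP synthase stood at 4103 ± 320, 3925 ± 416 and 3310 ± 110 CPM (SD, n = 4 each). A sum follows its most abundant rows, so each row was also set against its mean in Sham. The median of these log2 ratios over the 84 rows was -0.02, -0.22, 0.17 and 0.02 in the Sham libraries, 0.03, 0.09, -0.30 and 0.01 in the AD libraries and -0.26, -0.36, -0.30 and -0.34 in the AD-HFD libraries. Sham-2 thus lay closer to the AD-HFD libraries than to the other Sham libraries on this measure. The median over all genes tested lay between -0.03 and 0.01 in every library.

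**Figure D2:**
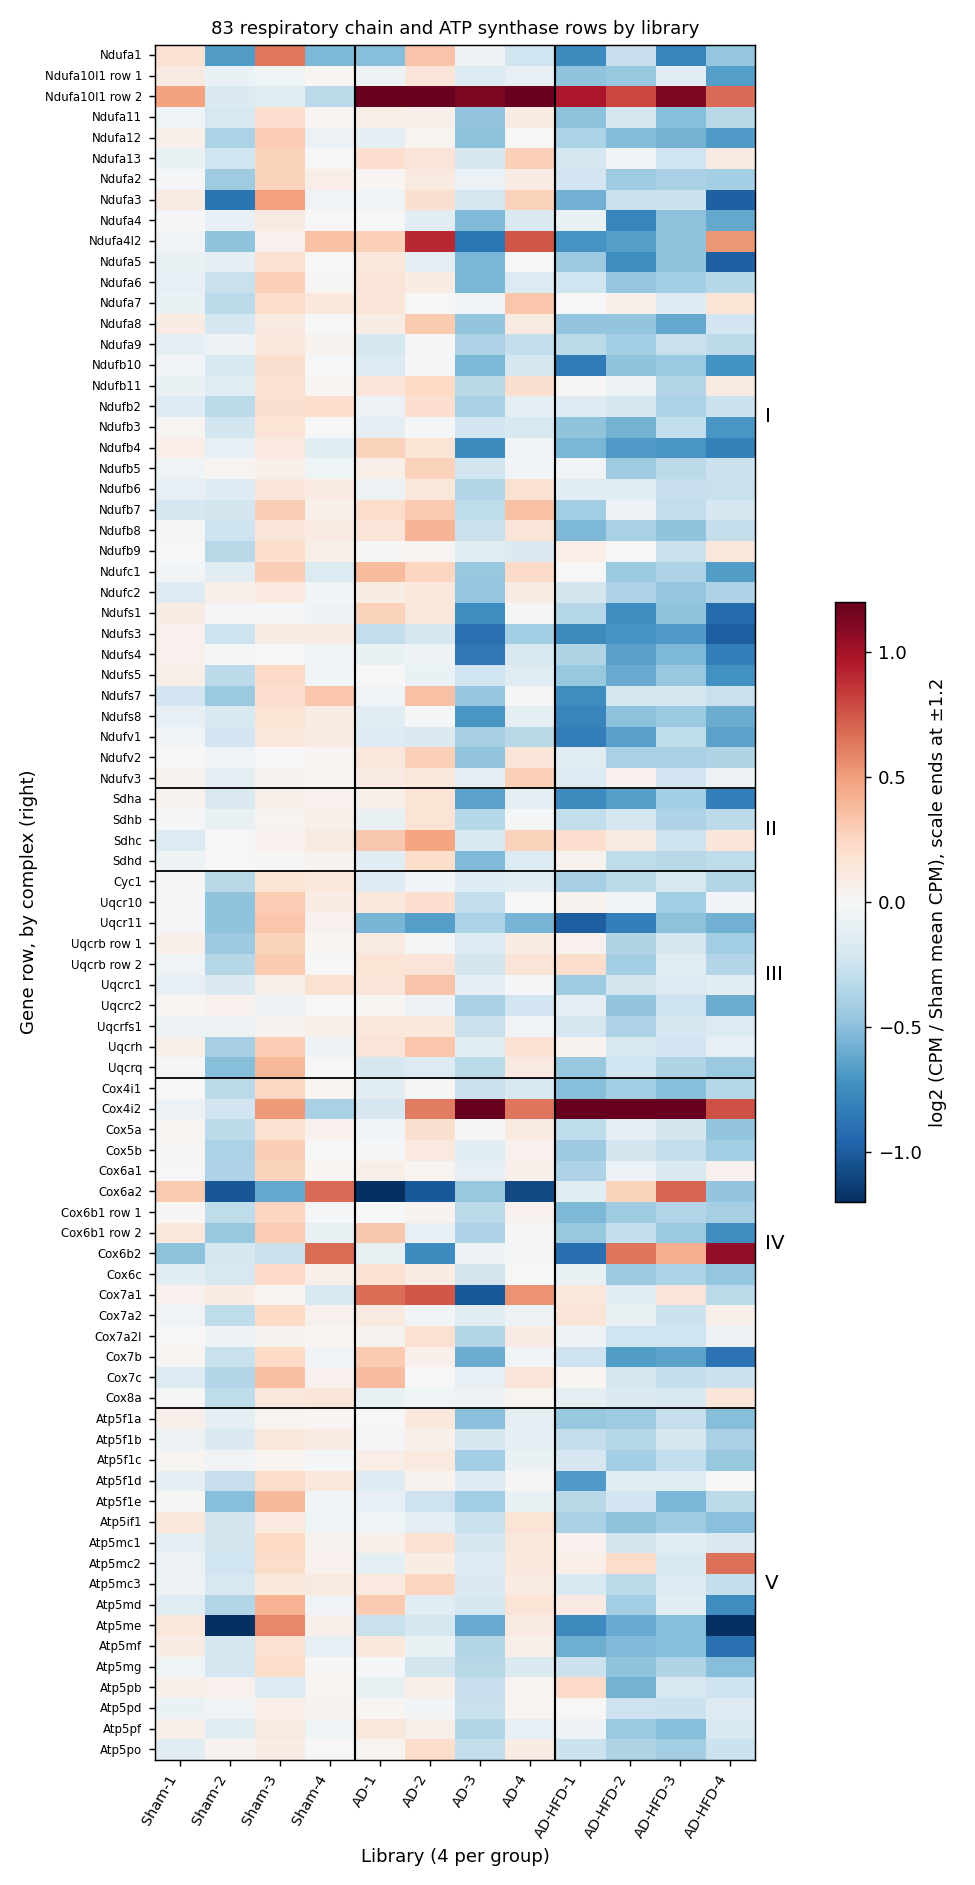
Each of 83 rows (vertical axis, grouped by complex) in each of the 12 libraries (horizontal axis), coloured by the log2 ratio of its CPM to the Sham mean, with the colour scale ending at ±1.2. Blue (below the Sham mean) predominates in the AD-HFD columns, the AD-3 column and the Sham-2 column. The medians lie between -0.26 and -0.36 in the AD-HFD and AD-3 columns and at -0.22 in Sham-2. The second Ndufa10l1 row and Cox4i2 stand out in red.

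The comparison of AD with Sham addressed the AD model without the diet. Of 10 thalamus markers 7 were called higher in AD and none lower. Of 11 cortical excitatory neuron markers tested 3 were called lower and none higher. The part of tissue region in this comparison was not tested. Of the 84 rows 1 was called, the second Ndufa10l1 row, and none was called lower, where 6.23% of all 18850 genes tested were called (3.07% higher and 3.16% lower). Calls were made by edgeR's quasi-likelihood test where the p adjusted after Benjamini and Hochberg was under 0.05. The log2 fold change lay above 0 for 33 rows and below 0 for 51, with a median of -0.04, against a median of 0.06 over all genes, of which 54.9% lay above 0. The groups did not overlap for 1 row higher and 1 lower (10.3% and 11.3% of all genes). At an unadjusted p under 0.05 there were 1 row higher and 3 lower (13.3% and 10.7% of all genes), and DESeq2 called 1 higher and 1 lower (2.38% of the rows, against 13.8% of all genes). Without AD-3 the median was 0.05 and 27 rows lay below 0. With AD-3 as the only AD library it was -0.31 and 82 rows lay below 0.

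Uqcr11, a small subunit of complex III, had the smallest p among the rows with a negative difference. It stood at 141, 103, 180.3 and 148 CPM in Sham and at 97.2, 90.3, 109.7 and 97.2 CPM in AD. The AD libraries lay close together, and AD-3 lay above Sham-2, so the groups overlapped. The log2 difference was -0.54 ± 0.174 (SE), with an adjusted p of 0.0866 that became 0.0445 without Sham-2. Ndufs3, a core subunit of complex I, differed by -0.43 ± 0.159 with an adjusted p of 0.128. Cox6a2, the form of a complex IV subunit known from heart and skeletal muscle, differed by -0.93 ± 0.404 with an adjusted p of 0.187. Its levels were 4.21, 1.66, 2.21 and 5.42 CPM in Sham and 1.35, 1.66, 2.46 and 1.60 CPM in AD, where Sham-1 and Sham-4 were high. Skeletal and heart muscle markers summed to 50.8 to 58.4 CPM in Sham and to 23.9 to 32.1 CPM in AD. Of 12 markers 7 were tested, with 1 called lower in AD, none called higher and 2 above 0. In AD-HFD the markers summed to 17.7 to 29.0 CPM, and Cox6a2 stood at 2.43 to 5.47 CPM. Against Sham 3 of these markers were called lower in AD-HFD and 1, Tnnt3, was called higher (2.61 ± 0.867). The part of these markers in the Cox6a2 difference was not tested.

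The comparison of AD-HFD with AD addressed the addition of the diet to the model. None of the 84 rows was called by edgeR, where 2 of all genes tested (0.0106%) were. Of the rows 78 lay below 0, with a median of -0.31, against a median of 0.04 over all genes, of which 52.6% lay above 0. At an unadjusted p under 0.05 there were 31 rows lower and 1 higher, or 36.9% of the rows lower, where 13.4% of all genes were lower. All 4 AD-HFD libraries lay below all 4 AD libraries for 14 rows, or 16.7%, against 2.74% of all genes, and above them for none, against 2.72%. DESeq2 called 17 rows lower (20.2% of the rows, where it called 8.22% of all genes lower and 17.6% in all), and limma voom called none of the rows and 0.0106% of all genes.

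AD-3 held the lowest level of the 4 AD libraries in 75 of the 84 rows, and in 68 rows it lay at or below the highest AD-HFD library. Without AD-3, 31 rows were called lower and 1 higher, where 30.3% of all genes were called and 12.3% were called lower. The rows lower were 20 of complex I, 2 of complex II, 3 of complex IV and 6 of the ATP synthase. None of the 10 rows of complex III was among them. With AD-3 as the only AD library the median was 0.03 and 38 rows lay below 0. In that fit the spread comes from the other groups, the single AD library is assumed to vary like them, and no gene of the whole table was called, so its lack of calls says nothing of the rows. Without AD-HFD-3, 10 rows (11.9%) were called lower, where 12.8% of all genes were called lower, so that share did not stand out. None was called higher, where 27.6% of all genes were called in either direction, and 77 rows lay below 0. The thalamus and cortex marker sums given above separated the other 3 AD libraries from AD-3 and from the AD-HFD libraries, and the part of tissue region in this comparison was not tested.

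Atp5mf, a subunit of the membrane part of the ATP synthase, had the smallest p of this comparison. It stood at 112, 96.3, 80.0 and 106 CPM in AD and at 67.9, 71.0, 71.8 and 54.8 CPM in AD-HFD. The groups did not overlap, and AD-3 was the lowest of the AD libraries. The log2 difference was -0.57 ± 0.149 with an adjusted p of 0.0605, and without AD-3 it was -0.66 ± 0.140 with an adjusted p of 0.00742. Ndufb8, an accessory subunit of complex I, stood at 147, 175, 110.2 and 148 CPM in AD and at 91.3, 101, 94.7 and 109 CPM in AD-HFD. The groups did not overlap here either, although AD-3 and AD-HFD-4 almost met. Its difference was -0.55 ± 0.152 with an adjusted p of 0.0622, and -0.66 ± 0.131 with an adjusted p of 0.00562 without AD-3. The other 8 rows among the 10 with the smallest p were Ndufb4, Ndufs5, Sdha, Atp5if1, Ndufa5, Ndufb3, Ndufa8 and Cox7b, with adjusted p of 0.0691 to 0.0938. Each of these 8 was called without AD-3. AD-3 was the lowest AD library in 75 of the 84 rows, so in those rows leaving it out raises the AD mean. Leaving out any other library gave no call among the rows in this comparison, except for AD-HFD-3.

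The comparison of AD-HFD with Sham addressed the model and the diet together and gave nearly all the calls. Of the 84 rows 22 fell and 2 rose. These were 26.2% and 2.38% of the rows, where 12.9% of all genes tested were called lower and 19.7% higher (32.7% in all). The rows were thus called about as often as other genes but mostly in 1 direction. In all 77 rows lay below 0, with a median of -0.32, against a median of 0.03 over all genes, of which 51.6% lay above 0. At an unadjusted p under 0.05 there were 37 rows lower and 2 higher, where 19.6% of all genes were lower and 25.8% higher (45.4% in all). Falls were called for 14 rows of complex I by symbol (Ndufa4 among them), 1 of complex II, 1 of complex III, 3 of complex IV and 3 of the ATP synthase. For 31 rows all AD-HFD libraries lay below all Sham libraries, and for 2 rows they lay above, where 16.2% and 18.9% of all genes did. The changes were small, and the median SE of a row's difference was 0.154, against 0.315 over all genes.

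**Figure D3:**
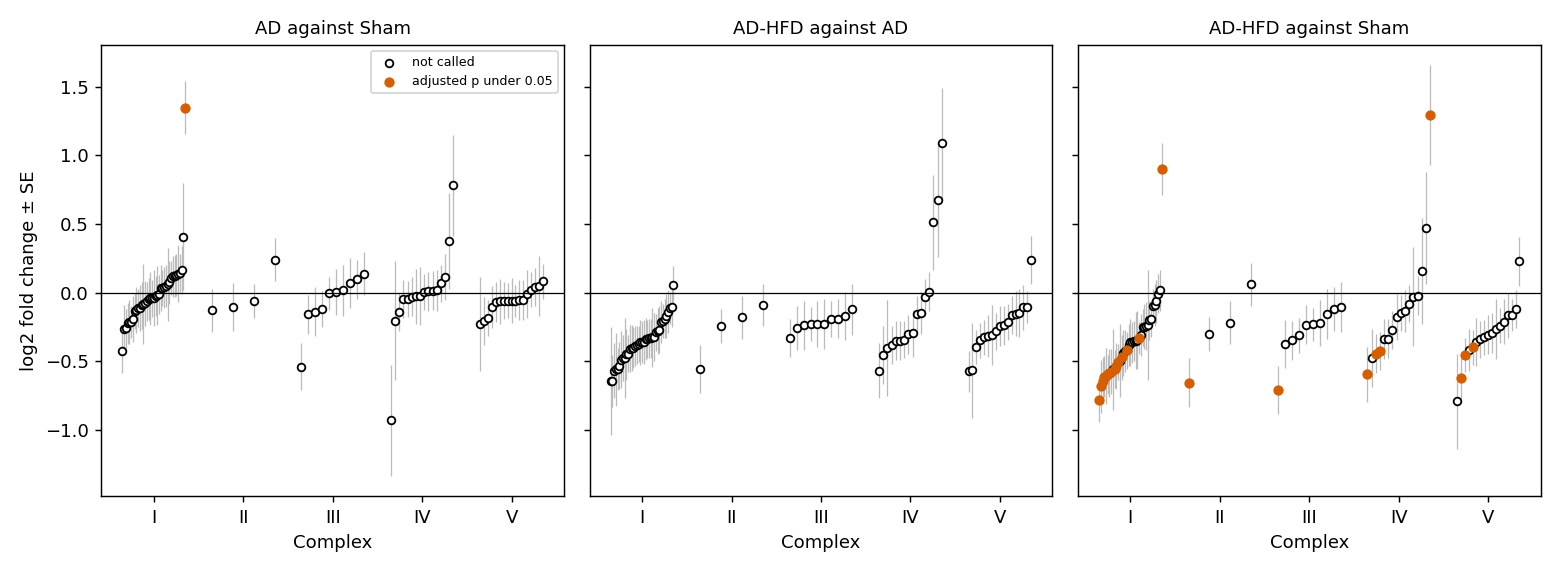
Log2 fold change ± SE (vertical axis) of each of the 84 rows, ordered within its complex (horizontal axis), for AD against Sham, AD-HFD against AD and AD-HFD against Sham. Filled points are rows with an adjusted p under 0.05, which number 1, 0 and 24.

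The number of calls depended on single libraries. Of the Sham libraries, leaving out Sham-1 gave 10 calls in place of 24, leaving out Sham-3 gave 11 and leaving out Sham-4 gave 12, while the share of all genes called went from 32.7% to 18.2%, 22.2% and 19.2%. Leaving out Sham-2 gave 33 calls, of which 32 were lower, where 25.6% of all genes were called. Of the AD-HFD libraries, leaving out the one numbered 2 gave 15 and the one numbered 4 gave 14 (23.2% and 20.5% of all genes). Without the 4 libraries that held choroid plexus RNA there was no call among the rows or among all genes, with 80 rows below 0 and a median of -0.36. Without AD-HFD-1 and AD-HFD-4, the libraries with the lowest neuron markers, 1 row of complex I was called higher and none was called lower. In that fit 80 rows lay below 0, with a median of -0.38. Of all genes 6.97% were called, and 1.75% were called lower. These last fits were chosen after the data were seen and rest on fewer libraries.

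Complex I held the largest share of the falls. Its 7 nuclear-encoded core subunits carry the flavin and the iron-sulfur clusters that take electrons from NADH to ubiquinone. All 7 lay below 0 in AD-HFD against Sham, with a median of -0.57, and Ndufs3, Ndufv1, Ndufs8 and Ndufs1 fell. Ndufs3, a core subunit of the arm that faces the matrix, had the largest fall of the called rows and the smallest p. It stood at 105, 86.1, 108 and 108 CPM in Sham, against 83.3, 88.5, 54.8 and 77.0 CPM in AD and 59.9, 62.5, 63.5 and 51.3 CPM in AD-HFD. All AD-HFD libraries lay below all Sham libraries, AD-3 lay within the AD-HFD range, and Sham-2 stood apart from the other Sham libraries. The difference was -0.78 ± 0.16 with an adjusted p of 0.00556, and it was called in each of the 12 fits that left out 1 library.

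Ndufv1, which binds NADH and the flavin, stood at 190.4, 167, 213 and 209 CPM in Sham, against 175, 173, 148 and 155 CPM in AD and 109.9, 124, 158 and 125 CPM in AD-HFD. AD-HFD-3 was the highest of its group and still lay below Sham-2, the lowest Sham library. The fall was -0.59 ± 0.141 with an adjusted p of 0.0105, and it was called in every fit without 1 library. Ndufs8, which carries a pair of iron-sulfur clusters, stood at 58.3, 55.05, 69.8 and 66.3 CPM in Sham, against 57.3, 61.4, 38.4 and 58.0 CPM in AD and 36.0, 44.4, 45.7 and 41.3 CPM in AD-HFD. AD-3 lay among the AD-HFD libraries and the other AD libraries within the Sham range. The difference from Sham was -0.57 ± 0.163 with an adjusted p of 0.0207, and the call was lost without Sham-3, Sham-4 or AD-HFD-1 (adjusted p up to 0.0592).

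Ndufs1, the largest core subunit, stood at 255, 236, 237 and 229 CPM in Sham, against 289.7, 263, 143 and 237 CPM in AD and 189, 143, 172 and 127 CPM in AD-HFD. The Sham libraries lay close together and above every AD-HFD library, and AD-3 lay next to AD-HFD-2. The fall from Sham was -0.60 ± 0.203 with an adjusted p of 0.0398, and the call was lost in 8 of the 12 fits without 1 library, those without any 1 of the Sham libraries, AD-2, AD-4, AD-HFD-2 or AD-HFD-4 (adjusted p up to 0.106). The remaining core subunits were not called. Ndufs7, which lies by the ubiquinone site, differed by -0.34 ± 0.214, and Ndufv2, the partner of Ndufv1, by -0.31 ± 0.155 (adjusted p of 0.229 and 0.14).

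Of the 30 accessory and related rows of complex I, 10 fell and 1 rose, and 28 lay below 0, with a median of -0.36. Ndufb4, of the membrane arm, stood at 84.5, 74.8, 86.9 and 73.2 CPM in Sham, against 97.0, 89.2, 47.2 and 77.1 CPM in AD and 54.5, 49.9, 49.2 and 45.5 CPM in AD-HFD. The AD-HFD libraries were tightly grouped well below Sham, and AD-3 lay among them. The difference from Sham was -0.68 ± 0.192 with an adjusted p of 0.0202, and the call was lost without Sham-1, Sham-3 or AD-HFD-4 (adjusted p up to 0.0597). Ndufb10, another membrane-arm subunit, stood at 100.03, 89.6, 117 and 103 CPM in Sham, against 91.2, 101, 70.6 and 88.7 CPM in AD and 57.1, 73.4, 75.4 and 62.4 CPM in AD-HFD. Sham and AD-HFD did not overlap, and the AD libraries lay between or within Sham, with AD-3 inside the AD-HFD range. Its fall was -0.61 ± 0.148 with an adjusted p of 0.0111.

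Ndufa5, of the matrix arm, stood at 69.2, 67.5, 83.5 and 73.4 CPM in Sham, against 80.6, 68.2, 50.2 and 73.0 CPM in AD and 54.4, 43.9, 52.6 and 37.3 CPM in AD-HFD. Sham and AD-HFD were apart, and AD-3 again lay with AD-HFD. The fall was -0.64 ± 0.171 with an adjusted p of 0.0164. Ndufs5, an accessory subunit despite its letter, stood at 88.9, 68.2, 99.5 and 82.9 CPM in Sham, against 84.8, 80.6, 72.1 and 76.9 CPM in AD and 61.9, 55.8, 62.1 and 51.4 CPM in AD-HFD. Here every AD-HFD library lay below every library of both other groups, AD-3 included. The fall from Sham was -0.55 ± 0.136 with an adjusted p of 0.0117, and Ndufb3 behaved alike, with AD at 53.9 to 62.0, AD-HFD at 38.9 to 51.3 and Sham at 54.2 to 70.9 CPM (-0.50 ± 0.13, adjusted p of 0.0141). Ndufb10, Ndufa5, Ndufs5 and Ndufb3 were called in every fit without 1 library.

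The other accessory rows that fell were Ndufs4 (-0.58), Ndufa12 (-0.53), Ndufa4 (-0.47), the first Ndufa10l1 row (-0.42) and Ndufa9 (-0.33), with adjusted p of 0.024 to 0.0485, and they are named here after their values were seen. Each of these 5 calls was lost without AD-HFD-2, AD-HFD-4 or any 1 of Sham-1, Sham-3 and Sham-4, among other libraries (adjusted p up to 0.0697 for Ndufs4 and up to 0.128 for Ndufa9). Ndufs4 is a subunit whose loss is known from a mouse model of Leigh syndrome. Ndufa4 was named as a complex I subunit and is now counted with complex IV, but its symbol placed it with complex I in the counts, sums and medians here. Not all of complex I was lower. Ndufb9 stood at 153, 123, 179 and 162 CPM in Sham and at 163, 153, 128 and 169.6 CPM in AD-HFD, with fully mixed groups and a difference of -0.01 ± 0.142. Ndufa7 lay at 0.02 ± 0.15, and Ndufa4l2, a relative of Ndufa4 known from pericytes and from hypoxia, at -0.23 ± 0.4. In Ndufa4l2, AD-HFD-4 stood at 5.02 CPM and the other 3 AD-HFD libraries at 2.14 to 2.50 CPM.

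Ndufa10l1, a relative of the complex I subunit gene Ndufa10, had 2 rows, which moved in opposite directions in AD-HFD against Sham. The first row (ENSRNOG00000016470) stood at 182, 159.9, 163 and 172 CPM in Sham, against 162, 188, 151 and 158 CPM in AD and 121, 124, 155 and 107 CPM in AD-HFD. The second row (ENSRNOG00000062245) stood at 19.8, 12.6, 12.996 and 11.4 CPM in Sham, against 35.5, 39.0, 31.0 and 39.5 CPM in AD and 27.9, 24.8, 31.0 and 22.7 CPM in AD-HFD. In the second row all 8 libraries of the model, AD-3 included, lay above all 4 Sham libraries. It rose by 1.35 ± 0.19 in AD (adjusted p of 0.00373) and by 0.90 ± 0.19 in AD-HFD (adjusted p of 0.00622) against Sham, and both calls held in every fit without 1 library. Without the 4 libraries with choroid plexus RNA the differences were 1.18 ± 0.294 and 0.76 ± 0.324 and neither was called (adjusted p of 0.209 and 0.242), in fits that called 0.0205% of all genes in AD and none in AD-HFD against Sham. Against AD, both rows were lower in AD-HFD and neither was called (-0.38 for the first and -0.45 for the second, adjusted p of 0.094 and 0.133). The second row's share of the counts of both rows was 7.68% ± 1.503 in Sham, against 18.04% ± 1.34 in AD and 17.4% ± 0.985 in AD-HFD (SD, n = 4). Reads could have been split between 2 rows of 1 symbol by the authors' counting, so the level of each is uncertain.

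Promoters of 6 complex I and II rows that fell are shown. All but Ndufs3 were chosen because the stretch shown holds a motif of a factor known for these genes. Ndufs3 was added as the row with the smallest p. The other rows that fell and had a RefSeq promoter held no match in that stretch, so the matches shown are not typical of them. The sequences are the 120 bases before the RefSeq start site in the GRCr8 assembly, 5′ to 3′ on the strand of the gene, and capitals mark matches to the letters searched. Ndufa12 (chr7:30658196-30658315, plus strand), Ndufa5 (chr4:53971236-53971355, minus strand), Ndufb4 (chr11:76569058-76569177, plus strand) and Sdha (chr1:30764433-30764552, plus strand) hold the NRF1 letters GCGCANGCG on one strand or the other. Ndufs8 (chr1:210573699-210573818, minus strand) holds the GABP letters CCGGAAG on its opposite strand. Ndufs3 (chr3:97339655-97339774, minus strand), the row with the smallest p, holds no match in the stretch shown.
Ndufa12: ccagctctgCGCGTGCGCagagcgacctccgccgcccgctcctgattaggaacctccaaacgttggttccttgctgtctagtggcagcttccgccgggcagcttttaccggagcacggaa
Ndufa5: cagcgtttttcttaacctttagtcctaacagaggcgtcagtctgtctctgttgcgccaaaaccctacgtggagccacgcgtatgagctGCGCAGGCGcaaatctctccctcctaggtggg
Ndufb4: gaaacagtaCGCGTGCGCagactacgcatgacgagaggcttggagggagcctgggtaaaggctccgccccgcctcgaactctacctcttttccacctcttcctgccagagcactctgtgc
Sdha: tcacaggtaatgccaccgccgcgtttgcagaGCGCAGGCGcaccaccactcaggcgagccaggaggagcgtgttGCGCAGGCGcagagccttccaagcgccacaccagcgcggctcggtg
Ndufs8: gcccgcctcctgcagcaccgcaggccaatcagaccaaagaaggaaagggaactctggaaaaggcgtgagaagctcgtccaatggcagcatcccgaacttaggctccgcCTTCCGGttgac
Ndufs3: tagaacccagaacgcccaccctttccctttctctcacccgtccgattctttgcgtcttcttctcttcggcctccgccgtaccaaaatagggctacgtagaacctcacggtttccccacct

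The matches lie 111 bases before the start in Ndufa12 and Ndufb4, 32 bases before it in Ndufa5 and 12 bases before it in Ndufs8. Sdha has matches 89 and 46 bases before the start in the stretch shown. Another NRF1 match in Sdha begins 1 base before the start and another in Ndufb4 begins 2 bases after it, both reaching beyond that stretch. Over all members, 69 of 81 symbols had a promoter in the RefSeq table, as windows of 250 bases before to 50 after the start. The NRF1 letters were in 17 of these 69 (24.6%) and in 5.80% of all 33469 promoters. The GABP letters were in 20 (29.0%, against 8.75%) and AAGATGG, the letters of YY1, in 18 (26.1%, against 7.01%), both strands searched. At least 1 of the 3 was in 44 of 69 members (63.8%), in 14 of the 20 matched symbols of rows that fell and in 19.1% of all promoters. No matches of different motifs overlapped. A match is a description of the letters and not a site shown to be bound, and the absence of one says only that the letters are not in the window. Among the symbols with no promoter in the table were Atp5md, Atp5pd, Cox4i2, Cox6a1, Cox6c, Cyc1, Ndufa10l1, Ndufa8, Ndufb9, Uqcr11 and Uqcrb.

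Complex II, succinate dehydrogenase, feeds electrons from the tricarboxylic acid cycle into the chain and has 4 subunits, all of nuclear origin. Sdha, the flavin-bearing catalytic subunit, fell. It stood at 385, 330.0, 389.7 and 385 CPM in Sham, against 388, 418, 238 and 346 CPM in AD and 220.5, 235, 281 and 210.1 CPM in AD-HFD. Sham-2 was the lowest Sham library, AD-3 lay in the AD-HFD range and the other AD libraries lay in or above the Sham range. The difference from Sham was -0.65 ± 0.176 with an adjusted p of 0.0169, and the call was lost only without Sham-1 (adjusted p of 0.0544). Sdhb, the iron-sulfur subunit, differed by -0.30 ± 0.123 with groups that did not overlap, and was not called (adjusted p of 0.0796). The membrane anchors Sdhc and Sdhd were not called, with differences of 0.06 ± 0.157 and -0.22 ± 0.156. Sdhc stood at 129.8, 145, 151 and 157 CPM in Sham and at 168, 157, 123 and 161 CPM in AD-HFD, and the groups were mixed.

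In complex III, which passes electrons from ubiquinol to cytochrome c, all 10 rows lay below 0 in AD-HFD against Sham, with a median of -0.23, and Uqcr11 fell. The Uqcr11 levels in AD-HFD were 72.1, 80.9, 101 and 96.0 CPM, all just below or far below the Sham values given above and overlapping the AD values. The fall was -0.71 ± 0.174 with an adjusted p of 0.0119, it was called in every fit without 1 library, and it was the second largest among the called rows. All AD libraries other than AD-3 also lay below all Sham libraries for Uqcr11, as they did for Ndufs4 of complex I. The catalytic subunits were not called. Cyc1, which carries the c-type haem, differed by -0.31 ± 0.129 and Uqcrfs1, the Rieske iron-sulfur protein, by -0.23 ± 0.121. The core proteins Uqcrc1 and Uqcrc2 differed by -0.23 ± 0.141 and -0.35 ± 0.141 (adjusted p of 0.219 and 0.078).

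In complex IV, cytochrome c oxidase, the nuclear subunits surround a core encoded by mitochondrial DNA, and several have alternative forms in different tissues. Of 16 rows 3 fell and 1 rose, and 13 lay below 0 with a median of -0.16. Cox4i1, the common form of subunit 4, stood at 443, 355, 525 and 451 CPM in Sham, against 406, 447, 368 and 389 CPM in AD and 310.3, 333, 311 and 349.8 CPM in AD-HFD. The AD-HFD libraries lay below both other groups, with AD-HFD-4 next to Sham-2. The fall was -0.44 ± 0.14 with an adjusted p of 0.0316, and the call was lost without Sham-1, Sham-3, Sham-4 or AD-HFD-1 (adjusted p up to 0.0971). Cox7b fell by 0.59 on the log2 scale (SE 0.201, adjusted p of 0.0407) and the first Cox6b1 row by 0.43 (SE 0.139, adjusted p of 0.0355). Both calls were lost without AD-HFD-2, AD-HFD-4 or any 1 of Sham-1, Sham-3 and Sham-4, among others (adjusted p up to 0.109). Cox7b in AD-HFD-1, at 122 CPM, lay just above Sham-2 at 121 CPM.

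Cox4i2, the alternative form of subunit 4 known from lung and from low oxygen, rose while Cox4i1 fell. It stood at 1.75, 1.57, 2.62 and 1.41 CPM in Sham, against 1.59, 2.83, 5.29 and 2.87 CPM in AD and 4.44, 4.53, 5.91 and 3.13 CPM in AD-HFD. All AD-HFD libraries lay above all Sham libraries, and AD-3 was the highest of the AD libraries. The rise was 1.29 ± 0.362 with an adjusted p of 0.0198, and the call was lost without Sham-1, Sham-2 or Sham-4 (adjusted p up to 0.0606). Its share of the counts of both forms was 0.410% ± 0.0782 in Sham, against 0.793% ± 0.441 in AD and 1.37% ± 0.400 in AD-HFD (SD, n = 4). Pericyte and smooth muscle markers summed to 183 to 252 CPM in Sham, 225 to 321 CPM in AD and 305 to 746 CPM in AD-HFD, with 7 of 12 called higher in AD-HFD against Sham, none called lower, 2 lower at an unadjusted p under 0.05 and none at 0. Within AD-HFD the marker sums were 348, 746, 305 and 650 CPM in order of the library numbers, beside Cox4i2 at 4.44, 4.53, 5.91 and 3.13 CPM. The part of these markers in the Cox4i2 rise was not tested.

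**Figure D4:**
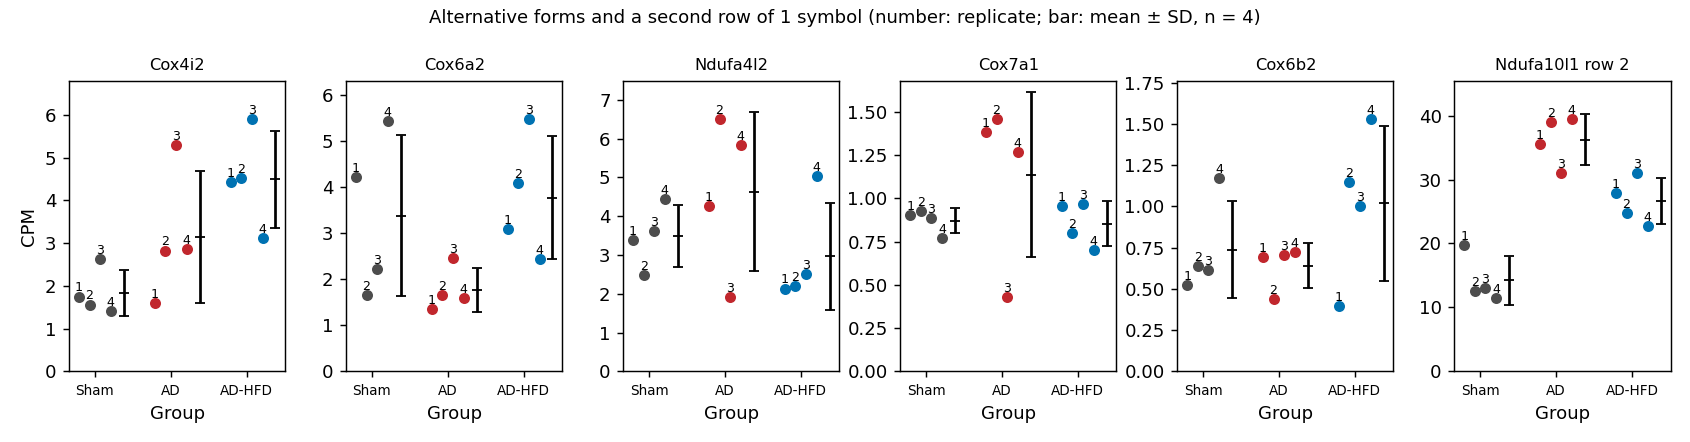
CPM (vertical axes, each with its own scale from 0) of 5 alternative forms and the second Ndufa10l1 row in the 4 libraries of each group (horizontal axes), with replicate numbers and the mean ± SD (n = 4). Cox4i2 and the second Ndufa10l1 row separate AD-HFD from Sham, and the other 4 do not.

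The other alternative forms were low and scattered. Cox6a2 stood at 3.09, 4.08, 5.47 and 2.43 CPM in AD-HFD, within or near the Sham range, with a difference from Sham of 0.16 ± 0.38. Against AD it differed by 1.09 ± 0.402 with an adjusted p of 0.103, which became 0.0468 without AD-3. Cox7a1, the muscle form of subunit 7a, and Cox6b2, the testis form of subunit 6b, differed from Sham by -0.03 ± 0.361 and 0.47 ± 0.407. The common forms of the same subunits were not uniform either. Cox7a2 stood at 101, 84.2, 123 and 108 CPM in Sham and at 116, 97.5, 86.9 and 109 CPM in AD-HFD (-0.02 ± 0.142), and Cox8a at 189.7 to 258 and 204 to 258 CPM (-0.08 ± 0.133). Cox6a1 differed by -0.13 ± 0.15, Cox5a and Cox5b by -0.27 ± 0.137 and -0.34 ± 0.144, and Cox7a2l, known as a factor that joins complexes III and IV, by -0.15 ± 0.13. None of these was called.

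The ATP synthase uses the proton gradient to make ATP and consists of a catalytic F1 head, a membrane Fo part and connecting stalks. In AD-HFD against Sham 16 of its 17 rows lay below 0, with a median of -0.30, and Atp5mf, Atp5if1 and Atp5mg fell. All 3 belong to the 12 rows of the membrane part, the stalk and the inhibitor, and none of the 5 F1 rows was called. Atp5mf stood at 109, 88.4, 116 and 95.3 CPM in Sham and at the AD-HFD levels given above, which were all lower. Its fall was -0.62 ± 0.149 with an adjusted p of 0.0105, and it was called in every fit without 1 library.

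Atp5if1, the inhibitor that blocks ATP hydrolysis by the enzyme, stood at 129, 102, 128 and 114 CPM in Sham, against 114, 109.6, 98.6 and 132 CPM in AD and 90.2, 84.02, 88.3 and 83.3 CPM in AD-HFD. Every AD-HFD library lay below every library of the other groups. The fall from Sham was -0.45 ± 0.127 with an adjusted p of 0.02, and the call was lost without Sham-1 or Sham-3 (adjusted p up to 0.0711). Atp5mg, of the membrane part, fell by 0.40 on the log2 scale (SE 0.13, adjusted p of 0.035), with a call that was lost without AD-4, AD-HFD-2, AD-HFD-4 or any 1 of Sham-1, Sham-3 and Sham-4 (adjusted p up to 0.107).

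All 5 F1 rows lay below 0, with adjusted p from 0.0558 for Atp5f1a to 0.335 for Atp5f1d. Atp5f1a, the alpha subunit, stood at 886, 785, 871 and 866 CPM in Sham, against 851, 929, 603 and 790.1 CPM in AD and 621, 632, 702 and 599 CPM in AD-HFD. Sham and AD-HFD did not overlap, and the difference of -0.42 ± 0.154 had an adjusted p of 0.0558. Atp5f1b, the catalytic beta subunit, stood at 1263, 1170, 1437 and 1406 CPM in Sham and at 1081, 1038, 1144 and 1008 CPM in AD-HFD, also apart (-0.30 ± 0.144, adjusted p of 0.119). Atp5me, a small membrane subunit, had the most negative difference of all 84 rows at -0.79 ± 0.346 and was not called (adjusted p of 0.0959). It stood at 38.4, 13.1, 52.0 and 36.4 CPM in Sham and 20.6, 23.0, 24.5 and 12.8 CPM in AD-HFD, where Sham-2 lay with the AD-HFD libraries. Atp5mc2, 1 of 3 genes of the same membrane ring subunit, differed by 0.23 ± 0.178, while Atp5mc1 and Atp5mc3 differed by -0.12 ± 0.138 and -0.24 ± 0.131.

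The members varied among libraries of 1 group by a median coefficient of variation of 13.4%. Atp5f1b varied least (7.80%) and Cox6a2 most (39.4%). Within Sham the variation was shared, since Sham-2 held the lowest Sham level in 67 of the 84 rows and Sham-3 the highest in 59. The log2 ratio of Sham-3 to Sham-2 was 1.99 for Atp5me, 1.36 for Ndufa3 and 1.31 for Ndufa1, all small subunits, and -0.12 for Uqcrc2 and -0.22 for Atp5pb. Sham-2 and Sham-3 were the Sham libraries that held choroid plexus RNA, at 4845 and 4685 CPM of summed markers.

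Other genes of mitochondrial energy metabolism were read from the same fits. Of 15 tested genes of the tricarboxylic acid cycle and pyruvate dehydrogenase 8 fell in AD-HFD against Sham and none rose, with a median of -0.42, and none was called in the other comparisons. Among them were Idh3g (-0.54 ± 0.142) and Idh3a (-0.61 ± 0.166), subunits of isocitrate dehydrogenase, and Pdha1 (-0.84 ± 0.231), of pyruvate dehydrogenase. The summed level of this list was 2932 to 3214 CPM in Sham, 2063 to 2405 CPM in AD-HFD and 2441 CPM in AD-3, against 2819 to 3236 CPM in the other AD libraries. Of 15 complex I assembly factors 4 fell and none rose, led by Ecsit (-0.78 ± 0.153, adjusted p of 0.00497) and including Tmem186 and Acad9. Of 31 assembly factors of the other complexes 8 fell and 1 rose, with Atpaf1, which helps to build the F1 head, at -0.98 ± 0.255 and Coa3 and Cox17, of complex IV, at -0.57 ± 0.129 and -0.57 ± 0.151.

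Regulators of mitochondrial biogenesis did not move in 1 direction. Of 14 genes 3 rose and 1 fell in AD-HFD against Sham, with a median of 0.07. Gabpa, the DNA-binding subunit of GABP, rose by 0.87 ± 0.237, and Pprc1, a coactivator, rose by 1.05 ± 0.295, while Sirt3, a mitochondrial deacetylase, fell (-0.65 ± 0.181). Ppargc1a, the best known coactivator of this program, differed from AD by -0.86 ± 0.36 and was not called (adjusted p of 0.134). Of 17 import and carrier genes 3 fell and 1 rose, with the adenine nucleotide carrier Slc25a4 at -0.45 ± 0.143. Of 11 genes of soluble carriers and linked dehydrogenases Coq2, of ubiquinone synthesis, fell in both AD (-0.65 ± 0.162) and AD-HFD (-0.75 ± 0.163) against Sham, and Etfa rose in AD-HFD (0.77 ± 0.271).

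Markers of cell types moved with the comparison of AD-HFD and Sham. Of 15 general neuron markers 10 fell and none rose, with a median of -1.14, and of 10 parvalbumin interneuron markers 4 fell, with a median of -1.10. Endothelial markers summed to 224 to 283 CPM in Sham and to 851, 469, 275 and 2513 CPM in AD-HFD, with 7 of 9 tested called higher and Cldn5 at 0 in Sham. Red blood cell markers summed to 159 to 361 CPM in Sham and to 253 to 4207 CPM in AD-HFD, with 5 of 5 called higher. Microglia markers summed to 271 to 305 CPM in Sham and 477 to 832 CPM in AD-HFD, with 7 of 11 called higher, 1 called lower and Siglech at 0 in Sham and AD. Oligodendrocyte markers summed to 8927.5 to 21343 CPM in Sham and to 33012, 30803, 6990.5 and 49162 CPM in AD-HFD. Of these 12 markers 2 were called higher and none lower. Astrocyte markers summed to 5100.5 to 5711 CPM in Sham and 3720 to 8181 CPM in AD-HFD, with 1 of 12 called higher and 2 lower. The part of these cell types in the falls was not tested. AD-HFD-3 had neuron and endothelial marker sums of 9960 and 275 CPM, within the AD and the Sham range respectively, and its median over the 84 rows was -0.30, like the -0.26 to -0.36 of the other AD-HFD libraries. AD-3, with 8979 and 365 CPM, also had a median of -0.30. Both libraries departed from Sham in other lists, with parvalbumin interneuron markers at 910 CPM in AD-3 and 769 CPM in AD-HFD-3 (1008 to 1078 CPM in Sham) and microglia markers at 553 and 477 CPM.

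**Figure D5:**
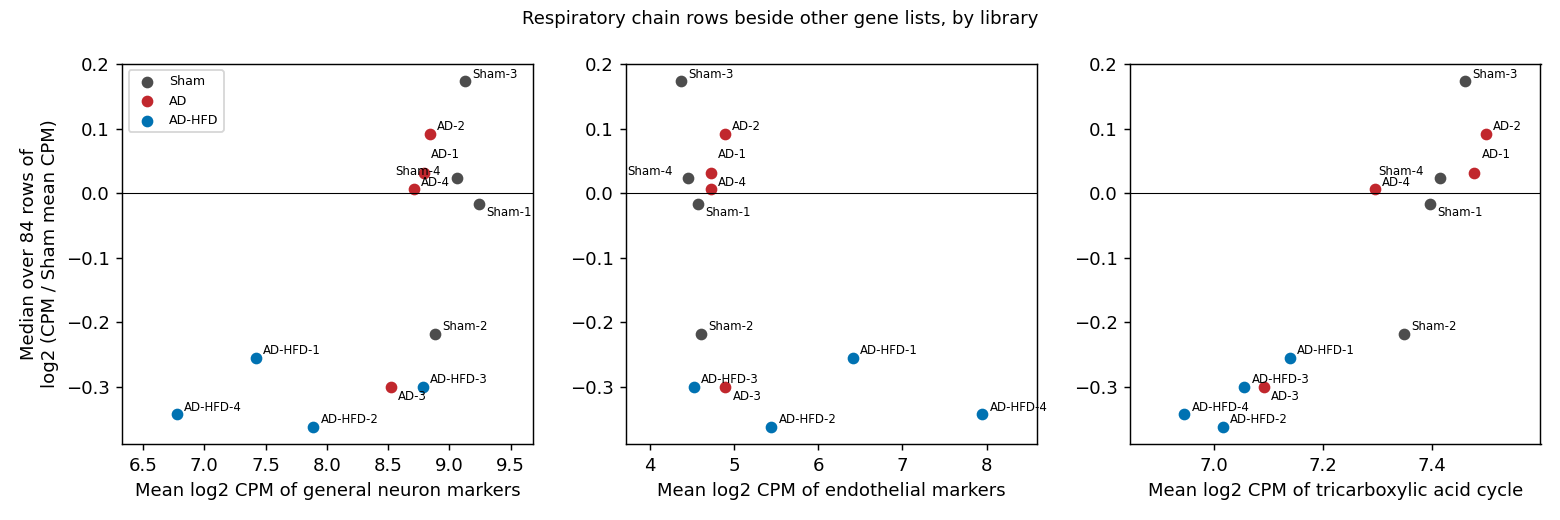
Median log2 ratio of the 84 rows to the Sham mean (vertical axis) against the mean log2 CPM of general neuron markers, endothelial markers and tricarboxylic acid cycle genes (horizontal axes), 1 point per library, coloured by group. AD-3 and AD-HFD-3 lie at -0.30. Their neuron marker levels (8.521 and 8.785) lie below those of Sham (8.881 to 9.239) and above those of AD-HFD-1, AD-HFD-2 and AD-HFD-4. In endothelial markers AD-3 (4.898) lies above Sham (4.368 to 4.612) and AD-HFD-3 (4.528) within it. In the right panel both lie with AD-HFD-1, AD-HFD-2 and AD-HFD-4.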

How the data were processed

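Messenger RNA libraries of 12 brain samples in 3 groups of 4 were used, extracted with TRIzol and made with a commercial messenger RNA kit, per the labels' protocols. The authors deposited 1 table of raw read counts per gene, with 31177 rows, of which 22050 have rat Ensembl identifiers and 9127 are new loci. FastQC and Trimmomatic are named per the submitters' processing notes. The aligner, counting tool, strand setting, genome build and annotation are not given in the sources used here. Reads of overlapping genes and near-identical copies may therefore be misassigned.

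From these counts, edgeR 4.0.16 in R 4.3.3 was fitted to all 12 libraries with 1 mean per group, TMM scaling and the default filter by expression, which left 18850 genes. Quasi-likelihood tests were adjusted over all of them by the Benjamini-Hochberg method with a threshold of 0.05. Errors of log2 fold changes are standard errors from the fold change and its F statistic. Alternatives used DESeq2 1.42.0, limma voom (limma 3.58.1), other scalings, filters and thresholds, a replicate block and each library left out in turn. On simulated counts for AD-HFD against Sham, the test recovered 35 of 50 genes changed 4-fold, 14 of 50 changed 2-fold and 1 of 50 changed 1.5-fold. Of the calls 6.67% were false. The changed genes were drawn from genes in general, with their own spread. The members had a smaller median SE (0.154, against 0.315 over all genes), so these rates do not describe them. Same-numbered libraries of different groups had correlations of their deviations of at most 0.0947, so the numbers were not used as pairs.

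The members, the gene lists and the tests were chosen with earlier results of these data known. Named genes were all called members of a comparison, or where more than 20 were called the 10 largest rises and falls, or where under 10 were called the 10 with the smallest p, plus the core subunits and alternative forms and up to 3 genes of each list by p. The individual values of 1 member are not reported here, and it is left out of the heat map and of the search for outlying libraries. Promoters came from RefSeq (GRCr8).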

Additional observations from a re-analysis of the deposited data

Results flagged for a closer look

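In 267 groups of 4 libraries (the levels of 83 members, the sums of the 5 complexes and the mitochondrially encoded share, in each of 3 groups), 13 held a library whose gap to its nearest neighbour was large against the range of its group (Dixon's test at the 95% level), and chance alone gives about 1 in 20. The low library was Sham-2 for Ndufs3 (86.07 CPM, nearest 105.5), Ndufv3 (43.39, nearest 47.24) and Sdha (330.0, nearest 384.6), and Sham-3 for Atp5pb (113.2, nearest 129.7). AD-3 was the low library for Ndufa11 (45.94 CPM, nearest 66.34), Ndufc2 (59.90, nearest 87.81), the second Uqcrb row (30.64, nearest 39.83) and the first Cox6b1 row (114.4, nearest 142.5), and AD-2 for Cox6b2 (0.4376, nearest 0.6928).

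In AD-HFD, Ndufs7 was low in AD-HFD-1 (43.29 CPM, nearest 60.35), while Ndufv2 (133.9, nearest 113.7) and Sdhd (136.3, nearest 106.8) were high in the same library. Ndufa4l2 was high in AD-HFD-4 (5.023 CPM, nearest 2.501).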

How the results depend on the processing

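Of the members, 24 were called in AD-HFD against Sham. The count was 13 with no scaling factors, 38 by DESeq2, 2 at an adjusted p of 0.01 and 39 at 0.1. It was 0 without the 4 libraries with choroid plexus RNA and 10 to 33 without 1 library. Without the 2 AD-HFD libraries lowest in neuron markers the count was 1, a row called higher. In AD-HFD against AD it was 0, with 17 by DESeq2, 13 at 0.1 and 0 to 32 without 1 library. In AD against Sham it was 1, with 2 by DESeq2 and at 0.1, 1 to 2 without 1 library, and 0 without the choroid plexus libraries or where AD-3 stood alone for AD. With AD-3 as the only AD library the median was -0.31 for AD against Sham, whereas AD-HFD against AD had 0.027.

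Over all genes, AD against Sham gave 1174 calls, with 2600 by DESeq2, 198 at 0.01, 2343 at 0.1, 2363 from the 2 groups alone, 4 without the choroid plexus libraries, 1968 without the libraries lowest in neuron markers and 302 to 2329 without 1 library. AD-HFD against AD gave 2, with 3310 by DESeq2, 3422 at 0.1, 5 under the block, 0 to 5841 without 1 library, and 0 at 0.01, from the 2 groups alone and in the 3 fits chosen after seeing the data. AD-HFD against Sham gave 6162, with 2174 at 0.01, 3514 to 8615 without 1 library, 0 without the choroid plexus libraries and 1379 without those lowest in neuron markers. Fits without libraries rest on fewer samples, and for the other settings the cause was not tested.

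Over all 84 rows, 38 lay below 0 in AD-HFD against AD with AD-3 as the only AD library, where the main fit had 78. In AD against Sham 82 lay below 0 in that fit and 27 without AD-3, where the main fit had 51. The rows that turned are not all listed here, since only the named genes of each comparison were followed from fit to fit. Among the named genes, the direction turned in these fits. With AD-3 as the only AD library it did for Sdhc in AD against Sham (-0.185) and for Ndufb4 (0.0733), Ndufa8 (0.0335) and Cox7b (0.00364) in AD-HFD against AD. In AD-HFD against Sham it did for Cox7a1 (0.0406) and Cox7a2 (0.04997) with no scaling factors. Over the fits without 1 library, Sdhc ran from -0.0129 (without Sham-2; -0.0106 without AD-HFD-2) to 0.150, Cox6a2 from -0.138 (without Sham-2; -0.0789 without AD-HFD-3) to 0.476, Cox7a2 from -0.182 to 0.0628 (without Sham-3; 0.0456 without AD-HFD-3) and Cox7a1 from -0.0976 to 0.0556 (without AD-HFD-4). Without the choroid plexus libraries it did for Sdhc (-0.0352) and Cox6a2 (-0.297), and without the libraries lowest in neuron markers for Sdhc (-0.121).

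Whether the replicate numbers pair the libraries is not stated in the labels, and the main fit did not use them as pairs. With the replicate number as a block, 16 members were called in AD-HFD against Sham (14 lower, 2 higher), 0 in AD-HFD against AD and 1 in AD against Sham.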
